A study of Mus musculus with 18 samples.

Results

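Whole testes of mice homozygous for repro9 were compared with wild-type testes at 14 days postpartum (dpp), across all genes of an Affymetrix whole-genome mouse array. The comparison was defined by the array titles, 5 arrays of repro9/repro9 mutants and 3 of wild type, so it used 8 of the 18 arrays of the series. The other 10 arrays, 5 of each genotype at 17 dpp, helped to estimate the spread and gave values to set beside those of the younger age. No array carried a treatment, and the labels give neither a strain nor the animal behind an array, so the p-values measure the spread between arrays, which may be partly technical. The submitters' text relates 14 dpp to testes enriched for early and middle pachytene spermatocytes. Expression is given as MAS5 signal, a linear measure of brightness per probe set, and differences as mutant minus wild type on the log2 scale with the standard error from limma. With 5 and 3 arrays, the precision of all values is limited by that number.

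repro9 is an allele of Mybl1 recovered in a chemical mutagenesis screen for infertility. Mybl1 encodes A-MYB, a MYB family transcription factor that appears in spermatocytes as they enter pachytene and binds DNA through a core of the letters AACNG. In the first wave of spermatogenesis germ cells reach each stage at about the same age, so the RNA of a juvenile testis changes as new stages appear. Known targets of A-MYB in mouse spermatocytes include genes of the piRNA pathway and many genes whose products are used later, in meiotic division and sperm formation. In bulk RNA, fewer cells of a type and less RNA per cell cannot be told apart, which applies to every germ cell gene below.

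Promoters are shown for 6 of the genes with the smallest adjusted p, because their starts are where the regulator's recognition letters would be looked for. They are the 250 bases before the first listed start in RefSeq (GRCm38.p6), 5′ to 3′ on the strand of the gene, and capitals mark AACNG on either strand, so that CNGTT is a match on the other strand. The chromosome interval and strand stand before each sequence.
Pdcl2, chr5:76331157-76331406 (-): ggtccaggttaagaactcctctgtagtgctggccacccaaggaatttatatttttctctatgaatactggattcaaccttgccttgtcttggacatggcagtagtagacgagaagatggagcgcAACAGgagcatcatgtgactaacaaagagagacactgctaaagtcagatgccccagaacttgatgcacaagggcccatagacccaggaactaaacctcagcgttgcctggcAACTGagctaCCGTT
Piwil1, chr5:128735996-128736245 (+): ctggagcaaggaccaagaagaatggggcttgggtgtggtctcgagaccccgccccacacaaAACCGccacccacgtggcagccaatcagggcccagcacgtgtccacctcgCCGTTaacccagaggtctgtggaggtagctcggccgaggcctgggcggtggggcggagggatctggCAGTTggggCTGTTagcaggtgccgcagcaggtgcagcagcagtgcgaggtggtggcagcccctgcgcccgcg
Spata4, chr8:54600531-54600780 (+): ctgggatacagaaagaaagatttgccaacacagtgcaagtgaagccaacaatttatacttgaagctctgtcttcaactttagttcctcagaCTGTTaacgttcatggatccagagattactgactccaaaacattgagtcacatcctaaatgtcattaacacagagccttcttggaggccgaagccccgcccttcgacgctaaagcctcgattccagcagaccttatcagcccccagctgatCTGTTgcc
1700006J14Rik, chr10:120363884-120364133 (+): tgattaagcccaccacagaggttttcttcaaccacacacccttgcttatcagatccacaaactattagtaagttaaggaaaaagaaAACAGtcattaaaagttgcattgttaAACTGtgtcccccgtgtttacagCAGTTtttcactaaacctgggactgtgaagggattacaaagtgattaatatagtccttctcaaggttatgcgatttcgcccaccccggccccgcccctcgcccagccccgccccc
1700102P08Rik, chr9:108392584-108392833 (+): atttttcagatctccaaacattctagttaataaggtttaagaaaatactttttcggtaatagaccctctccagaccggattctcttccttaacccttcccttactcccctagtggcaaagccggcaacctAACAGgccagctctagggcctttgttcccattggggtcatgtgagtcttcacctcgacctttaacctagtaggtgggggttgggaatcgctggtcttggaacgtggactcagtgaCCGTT
Meig1, chr2:3422649-3422898 (-): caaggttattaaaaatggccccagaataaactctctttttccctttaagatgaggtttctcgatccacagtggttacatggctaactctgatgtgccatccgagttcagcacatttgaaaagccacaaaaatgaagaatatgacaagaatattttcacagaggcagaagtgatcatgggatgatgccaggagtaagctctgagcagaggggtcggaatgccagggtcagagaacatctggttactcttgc

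Pdcl2 held 3 matches and Piwil1 4, and each had 1 match to the stricter AACGG, written CCGTT here. That match lay 5 bases before the start in Pdcl2 and 139 bases before it in Piwil1. Spata4 and 1700006J14Rik held 2 and 3 matches to AACNG and none to AACGG, 1700102P08Rik held 2 with an AACGG again 5 bases before the start, and Meig1, which has 3 starts in the table, held none in the window of its first. 4 more genes of that rank (1700006A11Rik, Fabp9, Psma8 and Adam2) are named only. Of the 49 genes called lower at 14 dpp (below), 40 had a promoter in the table, and AACGG stood in 16 of them (40%). The share was 19.4% of 12275 promoters of tested genes and 14.8% of all 27025 promoters, all over windows of the same length. AACNG, of which every AACGG is also a match, stood in 92.5% of the 40 promoters, 72.6% of those of tested genes and 74.1% of all. A match is a description of letters and no measure of binding.

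Mybl1, the gene that carries the allele, had signals of 249, 233, 85.1, 68.1 and 95.6 on mutant replicates 1 to 5 and 512, 775 and 651 on wild-type replicates 1 to 3. Every mutant array lay below every wild-type array, and the mutant arrays themselves fell into a brighter pair (replicates 1 and 2) and a dimmer trio. The difference was −2.33 ± 0.52 (adjusted p = 0.112) in limma's fit over all 18 arrays and did not pass the threshold of 0.05. With only the arrays of 14 dpp and the array set (below) as a block it was −2.07 ± 0.299 (adjusted p = 0.0029). The allele is not described as removing the probe set's target, so this level is no check of the labels.

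The brighter pair and the dimmer trio coincide with a technical split. The β-actin control probe sets at both ends of the transcript gave a 3'/5' ratio, a sign of RNA or labelling quality, of 2.33 to 2.54 on mutant replicates 1 and 2 and wild-type replicates 1 and 2 (set 1). The ratio was 1.45 to 1.49 on mutant replicates 3, 4 and 5 and wild-type replicate 3 (set 2). Both genotypes are thus present in each set, and the sets come from the control probe sets, with no label that names them. The wild-type signals of Mybl1 did not divide by set, with 512 and 775 in set 1 and 651 in set 2. A further 7 arrays, all of 17 dpp, had ratios of 102.6 to 125, and these arrays enter the spread of the fit over all 18 arrays. Most listed markers of Sertoli cells, Leydig cells, spermatogonia and pachytene spermatocytes passed the filter on low signal, which matches the labelled tissue. The filter asks for 3 of the 18 arrays, whatever their genotype or age, so passing it does not show a signal in each genotype. Among the pachytene markers, mean mutant signals at 14 dpp were 17.9 in Adam2 and 60.3 in Piwil1. Both lay under 68.4, the lowest 40th percentile of a mutant array, while Meig1 (449) and Hspa2 (993) lay above it.

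Testes of 14 dpp mutants had lower RNA levels of a small group of genes, many of them known from male germ cells, and no gene was called higher in the fit over all arrays. Of 34764 probe sets, 68 were lower (0.196%) and 0 higher by limma with Benjamini-Hochberg adjustment. At an unadjusted p under 0.05 there were 696, of which 462 were lower and 234 higher. The 68 represented 49 of 15307 genes (0.32%), with falls from 3.19-fold in Ccdc18 to 86.3-fold in Mroh4 and a median difference of −3.41. In 45 of the 49 the fall was over 4-fold and in 19 over 16-fold. All 49 had every mutant array below every wild-type array, against 4.49% of all genes, and all 49 were lower within set 1 and within set 2. The 49 were called on these same arrays, so these counts follow largely from the call and are no further test. Signals in the mutants were often near the floor of the assay, since the mutant mean of 31 genes lay under 68.4, the lowest 40th percentile found on a mutant array, so the size of those folds is uncertain. With replicate number as a block, in which only replicates 1 to 3 of each genotype bear on the contrast, 30 probe sets were called and 20 of the 49 genes kept their call. Those 20 were Pdcl2, Piwil1, Spata4, 1700006J14Rik, 1700006A11Rik, Fabp9, 1700102P08Rik, Meig1, Psma8, Adam2, Lrrc34, Eid3, Tesmin, Cers3, 1700029M20Rik, Gtf2a1l, Ldhc, Hspa2, Morc2b and Cyct. The other 29 genes had adjusted p values from 0.0556 to 0.528 there. Leaving out wild-type replicate 2 gave 24 probe sets.

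**Figure D1:**
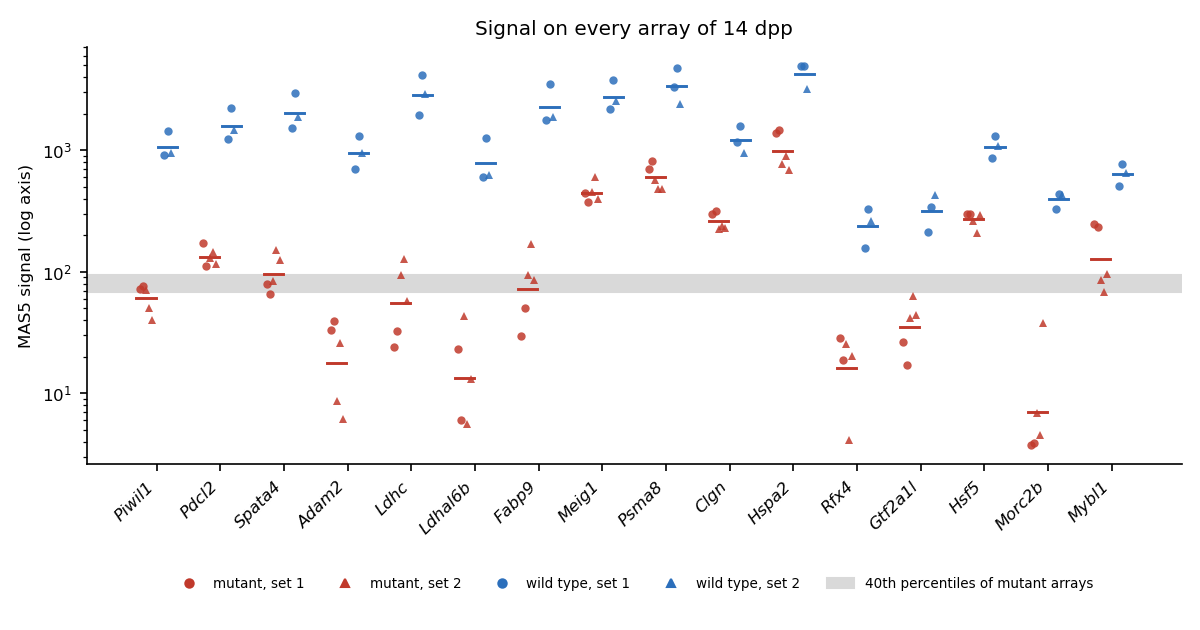
MAS5 signal (log axis) of 15 called genes and Mybl1 on each of the 8 arrays of 14 dpp, with mutants in red and wild type in blue, circles for array set 1, triangles for array set 2, and a bar at each group's geometric mean. No mutant array reaches the lowest wild-type array of its gene, and the grey band spans the 40th percentiles of mutant arrays, 68.4 to 93.4.

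Piwil1 encodes MIWI, the PIWI protein that holds pachytene piRNAs. Its signal was 72.2, 76.5, 71.2, 50.7 and 40.04 on mutant replicates 1 to 5 and 911, 1427 and 945 on wild-type replicates 1 to 3. The groups were far apart, and all 5 mutant arrays were close to or under the dim end of the array. The difference was −4.15 ± 0.39 (adjusted p = 6.22e-05), 17.8-fold lower.

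Energy and lipid metabolism supplied 9 of the 49 genes, most of them isoforms that replace somatic enzymes in male germ cells. Ldhc, the lactate dehydrogenase of spermatocytes and sperm, gave signals of 24.1, 32.4, 93.8, 128 and 57.2 in mutants and 1934, 4122 and 2890.4 in wild type. Its difference was −5.67 ± 0.89 (adjusted p = 0.00541). The lowest wild-type array was well above the highest mutant array, and the 2 mutant arrays of set 1 were dimmer than the 3 of set 2. Ldhal6b, a lactate dehydrogenase-like retrogene, gave 23.2, 6.09, 42.95, 5.61 and 13.2 in mutants and 601, 1258 and 630.3 in wild type. Its difference was −5.85 ± 0.74 (adjusted p = 0.000677). The retrogene Gk2, a glycerol kinase, gave 2.57, 5.06, 10.1, 56.98 and 26.3 in mutants and 364, 864 and 360.1 in wild type, and its difference was −5.40 ± 1.01 (adjusted p = 0.0259). In both retrogenes the mutant arrays were spread over a wide range of dim values. Fabp9, a fatty acid-binding protein of the sperm head, gave 29.5, 50, 93.3, 169.7 and 85.9 in mutants and 1756, 3472 and 1875 in wild type, a difference of −4.96 ± 0.54 (adjusted p = 0.000201). Falls were smaller in genes that stayed well above the dim end in mutants: Cyct, the testis form of cytochrome c, at −2.003 ± 0.34 (adjusted p = 0.00985), and Cox8c, a cytochrome c oxidase subunit, at −2.53 ± 0.46 (adjusted p = 0.0171). Cers3, a ceramide synthase that makes very long chain lipids, was at −2.25 ± 0.33 (adjusted p = 0.00334). Fbp1, an enzyme of gluconeogenesis (−3.88), and Mdh1b, a malate dehydrogenase (−2.69), completed the group. The called isoforms Ldhc, Ldhal6b, Gk2, Cyct and Cox8c all kept lower levels in both array sets, and the first 3 had mutant means in the dim range.

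Among the widely expressed counterparts of these isoforms 1 was called, in 1 of the fits. Ldha, which encodes the main lactate dehydrogenase of somatic cells, gave 1228, 1127, 1424, 1038 and 1257 in mutants and 1572, 1516 and 1959 in wild type. Its groups did not overlap, and the difference was −0.47 ± 0.53 over all arrays (adjusted p = 1) and −0.51 ± 0.11 (adjusted p = 0.0399) with the arrays of 14 dpp and the set block. Cycs, the somatic cytochrome c, differed by −0.0072 ± 0.076 (adjusted p = 0.983) in the latter fit. Ldhb differed there by 0.066, Cox8a by −0.044, Cox6b1 by 0.034 and the X-linked Pdha1 and Pgk1 by 0.06 and 0.08, none of them called. Of 18 germ cell energy isoforms tested, 5 were called lower over all arrays and 9 (50%) with the arrays of 14 dpp and the set block. Their median difference was −1.67 over all arrays. Wild-type arrays alone can take an isoform past the filter on low signal, so genes dim in mutants are admitted and this median is no test. Of 13 somatic counterparts, 0 and 1 (7.69%) were called, with a median of 0.03, and the median of all genes was 0.003. Of all genes, 0.32% and 2.38% were called lower in these 2 fits. Summed signals of the isoforms ran from 11499 to 15420.4 in mutants and 26830.0 to 39027 in wild type, and those of the counterparts from 64365 to 74713 in mutants and 69571 to 70862 in wild type. The first pair of ranges was separate and the second overlapped.

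Protein folding and turnover held 5 genes, of which 4 were still well measured in the mutants. Pdcl2, a phosducin-like protein of germ cells, gave 174, 111, 130.4, 146 and 115 in mutants and 1245, 2214 and 1464 in wild type, and its difference of −3.58 ± 0.34 (adjusted p = 6.22e-05) shared with that of Piwil1 the smallest adjusted p. Psma8, the alpha subunit of the spermatocyte proteasome, gave 705, 821, 571, 478 and 480.0 in mutants and 3301, 4702 and 2401 in wild type, a difference of −2.48 ± 0.29 (adjusted p = 0.000365). Hspa2, the HSP70 family chaperone of spermatocytes, was at −2.09 ± 0.33 (adjusted p = 0.00541), and Clgn, a chaperone of the endoplasmic reticulum needed for sperm surface proteins, was at −2.21 ± 0.35 (adjusted p = 0.00541). The wild-type arrays lay above the mutant arrays in all 4, and in Hspa2 the set 1 arrays of each genotype were brighter than its set 2 arrays. Marchf11, a ubiquitin ligase, was dim in mutants (−3.89). Of 12 germ cell chaperones tested, 2 were called over all arrays. With the arrays of 14 dpp and the set block 6 were called (50%, against 2.38% of all genes). The added 4 were Hspa4l, Dnajb3, Cct6b and Tcp11, with differences there of −0.804, −1.20, −1.29 and −1.30.

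Genes of the cilium and flagellum made up 7 of the 49. Meig1, required later for the sperm tail, gave 444, 378, 456, 597 and 398 in mutants and 2166, 3774 and 2521 in wild type, a difference of −2.61 ± 0.300 (adjusted p = 0.000275), with every mutant array above the dim range. Zmynd10, a factor for assembly of axonemal dynein arms, gave 36.9, 11.8, 7.62, 20.8 and 16.6 in mutants and 389, 485 and 776 in wild type, a difference of −5.02 ± 0.75 (adjusted p = 0.00372). All mutant arrays of Zmynd10 lay under the dim range. Dynlrb2, a dynein light chain (−2.88), Dnah7a, an axonemal dynein heavy chain (−2.49), Ttll8, a tubulin glycylase (−4.28), Ttc30a2, of intraflagellar transport (−2.92), and Pifo, a primary cilium gene (−4.13), were also lower. Of 38 axoneme and cilium genes tested, 37 had negative differences (all genes 49.5%). Wild-type arrays alone can take a gene past the filter on low signal. Genes dim in mutants are thus admitted, and this count of signs is no test. Over all arrays 3 were called, and 15 (39.5%, against 2.38% of all genes) with the arrays of 14 dpp and the set block. The 12 that the second fit added include Rsph1, a radial spoke gene, at −2.56, Ropn1l at −2.48, Spag6l, of the central pair, at −3.50 and Tekt1 at −2.25. Ift88, of intraflagellar transport, fell least, by 0.47.

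Regulators of transcription and chromatin were 7 of the 49. Morc2b, a MORC family ATPase, gave 3.73, 3.93, 6.94, 4.55 and 38.01 in mutants and 331, 438 and 429 in wild type, a difference of −5.81 ± 0.94 (adjusted p = 0.00653). Mutant replicate 5 was the brightest of its group and still far below wild type. Phf7, a PHD finger chromatin protein, gave 1430.3, 1401, 1299.6, 1051 and 1048 in mutants and 3745, 6045 and 3794 in wild type, a difference of −1.84 ± 0.26 (adjusted p = 0.00226). Its fall was the second smallest of the 49, and all its mutant arrays were far above the dim range. Eid3, which can bind p300 and the SMC5/6 complex, gave 2.32, 6.47, 9.38, 33.6 and 9.35 in mutants and 173, 369 and 222 in wild type, a difference of −4.83 ± 0.66 (adjusted p = 0.00193). Hsf5, a heat shock factor family member of spermatocytes, was at −1.99 ± 0.31 (adjusted p = 0.00541). Gtf2a1l, the germ cell form of the general factor TFIIA, was at −3.17 ± 0.48 (adjusted p = 0.00404), and Rfx4, of the RFX family, at −3.86 ± 0.62 (adjusted p = 0.00653). Tesmin, a germ cell protein with CXC domains like those of Lin54, was at −3.15 ± 0.45 (adjusted p = 0.00245). Of 32 spermatocyte transcription regulators tested, 4 were called lower over all arrays. With the arrays of 14 dpp and the set block 8 were lower (25%, against 2.38% of all genes) and 2 higher. The list median was −0.02 over all arrays, with 17 of the 32 members negative. The 4 lower genes that the block added were Tcfl5 (−0.51), Brdt (−1.12), Dmrtc2 (−0.65) and Ybx2 (−1.35), and the 2 higher were Taf7l and Zfy2, on X and Y.

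Genes for proteins of the sperm surface and acrosome were 4 of the 49. Adam2, fertilin beta, gave 33.2, 39.4, 8.71, 26.1 and 6.15 in mutants and 706, 1304 and 944 in wild type, a difference of −5.74 ± 0.68 (adjusted p = 0.000365). No mutant array was above 39.4, and the groups were far apart. Crisp2, an acrosome and tail protein, was at −4.84 ± 0.84 (adjusted p = 0.0124), Tcam1, a testis cell adhesion molecule, at −2.39 ± 0.45 (adjusted p = 0.0271), and Spesp1, of the equatorial segment, at −1.91 ± 0.35 (adjusted p = 0.0202). Of 18 genes on the list of sperm surface and fertilisation proteins, 4 (22.2%) were called in both fits (Adam2, Spesp1, Crisp2 and Clgn). Of 24 acrosome and round spermatid genes, 0 were called over all arrays and 4 had an unadjusted p under 0.05. With the arrays of 14 dpp and the set block 2 were called (8.33%, against 2.38% of all genes), Acr (−1.51) and Dkkl1 (−4.91). Summed signals of these 24 genes, 1911 to 3656 in mutants and 2555 to 3808 in wild type, overlapped between the sets and were lower in mutants within each.

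Of the remaining 16 genes, 9 have RIKEN clone names and no role is claimed for them here. 1700006A11Rik gave 13.4, 24.6, 18.1, 6.16 and 25 in mutants and 799, 1294 and 468 in wild type, a difference of −5.65 ± 0.62 (adjusted p = 0.000201). 1700006J14Rik gave 26.5, 40.6, 38.9, 59.03 and 56.5 in mutants and 376, 554 and 443 in wild type, a difference of −3.41 ± 0.37 (adjusted p = 0.000201). Each of them had all mutant arrays under the dim range. 1700102P08Rik gave 328, 293, 271, 288 and 243 in mutants and 1596, 2377 and 1882 in wild type, a difference of −2.76 ± 0.31 (adjusted p = 0.000214), with mutant arrays in a narrow range well above it. 1700012B09Rik gave 10.4, 5.12, 26.2, 13.1 and 5.897 in mutants and 158, 261 and 247 in wild type, a difference of −4.42 ± 0.62 (adjusted p = 0.00226). 1700029M20Rik gave 44.7, 61.6, 66.5, 82.1 and 35.97 in mutants and 1509, 2243 and 1895 in wild type, a difference of −5.06 ± 0.77 (adjusted p = 0.00404). Both were low on every mutant array. 1700008K24Rik gave 21.8, 6.16, 85.5, 146 and 74.7 in mutants and 1080.2, 1923 and 1129 in wild type, a difference of −4.996 ± 1.002 (adjusted p = 0.0484), and its mutant arrays of set 1 were dimmer than those of set 2. 4932414N04Rik, 4921525O09Rik and 4930463O16Rik were at −3.33, −3.10 and −2.67.

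Another 7 genes fell outside these roles. Spata4, a spermatogenesis-associated gene, gave 78.8, 65.1, 84.8, 152 and 124 in mutants and 1516, 2975 and 1879 in wild type, a difference of −4.41 ± 0.43 (adjusted p = 7.82e-05). Lrrc34, a leucine-rich repeat gene, gave 45.8, 23.3, 52.7, 64.7 and 52.5 in mutants and 441, 757 and 619 in wild type, a difference of −3.70 ± 0.46 (adjusted p = 0.000641). Mroh4, a maestro heat-like repeat gene, gave 5.62, 6.31, 18.4, 14.7 and 13.1 in mutants and 764, 1303 and 743 in wild type and had the largest fall of all, −6.43 ± 0.96 (adjusted p = 0.00363). Every mutant array of Mroh4 was under 20, so the size of this fold is uncertain. Ccdc89 (−2.75), Rbakdn (−4.25), Pde1c, a cyclic nucleotide phosphodiesterase (−2.72), and Ccdc18 (−1.68) were also called. Of the 68 probe sets, 3 were annotated to several genes, 6 to none, and 10 were a further probe set of a gene, among them second probe sets of Clgn, Ldhc, Ttc30a2 and Phf7 and dimmer probe sets of Cntd1, Slc2a3 and Cetn1 whose brightest probe set was not called.

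The 2 array sets hold no array in common, so the sign of each set's calls can be read in the other. Both contrasts came from 1 fit with a shared spread per gene, so a call in both sets is not independent. Over all genes the median difference was 0.0008 within set 1 and −0.0004 within set 2. Within set 1, 48 genes were called lower, all 48 were negative within set 2, and 21 were called there too, with medians of −3.87 and −3.15. Within set 2, 23 genes were called lower, all 23 were negative within set 1 and 21 were called there. Set 2 has 1 wild-type array, which was assumed to vary like the other groups. Of the 4 genes called higher within set 1 (Plbd1, Fam181b, Ano1 and Srd5a3), 2 were positive within set 2 and 0 called. Gprin2, the 1 gene called higher within set 2, was positive within set 1 and not called.

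Removing the 10 arrays of 17 dpp from the fit and adding the array set as a block, 2 choices changed at once, gave a wider group of genes. The block alone gave 128 probe sets and the arrays of 14 dpp alone 177. This fit has 5 residual degrees of freedom. It called 658 probe sets, 527 lower (1.52%) and 131 higher (0.377%), which represented 426 genes, of which 365 were lower (2.38%) and 61 higher (0.399%). The median was −0.98 among the lower genes and 0.52 among the higher. All 49 genes above were among the lower ones, and of the other 316 the mutant mean of 260 lay above 93.4, the highest 40th percentile of the mutant arrays, so most of the added falls were of genes that remained well measured. The median of the 316 was −0.81. Over 2-fold changes were made by 179 of the lower and 6 of the higher genes. Without the intensity trend the fit called 118 genes, of which 4 were higher. Leaving out wild-type replicate 2 left 215 and mutant replicate 2 left 272. Without wild-type replicate 3 it called 396, of which 142 were higher. With arrays set to a common median 441 were lower and 35 higher. The higher genes numbered 22 without mutant replicate 1, 22 without mutant replicate 2 and 21 without wild-type replicate 2.

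**Figure D2:**
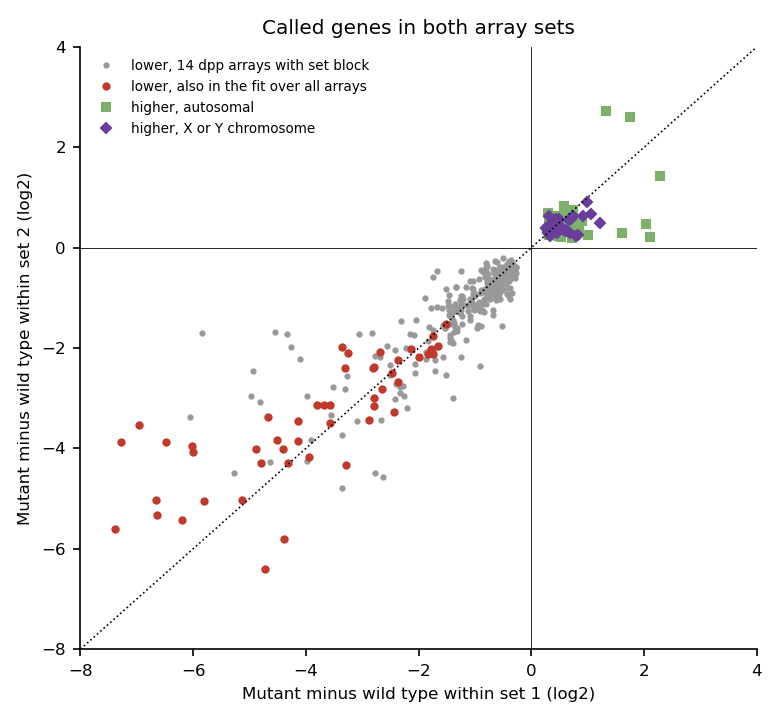
Mutant minus wild type (log2) within array set 1 (x axis) and within array set 2 (y axis) for the 426 genes called with the arrays of 14 dpp and the set as a block, with the 49 genes of the fit over all arrays in red and the dotted line marking equal values. The red genes all lie in the lower left, and the higher genes, autosomal or sex-linked, lie in the upper right, most of them under 1 in both sets.

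The same fit called more members of several spermatocyte lists, beside 2.38% of all genes called lower in it. Of 29 pachytene markers, 9 were lower over all arrays, with a median of −1.22, and 17 (58.6%) with the arrays of 14 dpp. The median has the limit from the filter given for the axoneme list. Summed signals of the 29 were 43788 to 52576 in mutants and 68175 to 86674 in wild type, without overlap. All 9 are also members of other lists given here, so the lists are not separate results. The lists were chosen with earlier results of these data known. The piRNA and germ granule list, 21 genes, gave 1 and 9 (42.9%). After Piwil1 came Pld6, a mitochondrial nuclease of piRNA processing, at −1.27 ± 0.098 (adjusted p = 2.97e-05). Its signals were 618, 592, 530.0, 570.4 and 490.4 in mutants and 1449.9, 1582 and 1213 in wild type, and the groups did not overlap. Tdrd5 (−1.12), Tdrd12 (−0.98), Mov10l1 (−0.700), Piwil2 (−0.64), Tdrd9 (−0.58), Ddx4 (−0.41) and Mael (−0.32) were also lower, all by much less than Piwil1. Autosomal retrogenes of X-linked genes had 1 and 5 (50%) of 10 called. All 10 were negative, a count with the same limit from the filter as in the axoneme list. The 4 besides Gk2 were Pdha2 (−1.63), Tktl2 (−1.23), Fam50b (−1.78) and Rbmxl2 (−0.67).

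Genes of chromosome pairing, recombination and entry into meiosis were read from both fits, in which 0.32% and 2.38% of all genes were called lower. Of 17 synaptonemal complex and axis genes, 0 were called in either limma fit and 0 had an unadjusted p under 0.05 over all arrays. Trip13, Tex12 and Sycp2, those with the smallest p, differed by −0.37, −0.32 and −0.27. Of 20 recombination genes, 0 were called over all arrays (3 at an unadjusted p under 0.05), and with the arrays of 14 dpp Meiob (−0.96) and Psmc3ip (−0.73) were lower, or 10% of the list, against 2.38% of all genes. Mlh3, of crossover formation, had a difference of −0.66 over all arrays without a call. Of 26 genes of meiotic entry and the preleptotene to zygotene stages, 0 and 2 were called (Meiob again, and Dmrtc2, 7.69% of the list), with 1 at an unadjusted p under 0.05 over all arrays. Of 30 spermatogonial genes, 0 and 1 (3.33%) were called, again with 1 at an unadjusted p under 0.05. That gene was Id4, an inhibitor of DNA binding known from spermatogonial stem cells. Its signals were 717, 828.7, 1074, 1051 and 943 in mutants and 2044, 1855 and 1756 in wild type, and its difference with the block was −1.10 ± 0.12 (adjusted p = 0.000449). The list as a whole did not go its way. The median of the 30 spermatogonial genes was 0.087 over all arrays and 0.12 with the block, with 10 and 6 members negative. Genes of meiotic division and G2/M, 35 tested, had 1 (Tesmin) called over all arrays. With the arrays of 14 dpp 7 (20%) were lower, while Ccnb3 was higher. Among the 7 were the kinases Nek2 (−0.804) and Aurka (−0.71), the inhibitory kinase Pkmyt1 (−0.802), and Ccnb2 (−0.58), Cks2 (−0.57) and Cdc20 (−0.56). Of 29 RNA binding and translation regulators, 0 were called over all arrays (4 at an unadjusted p under 0.05). With the arrays of 14 dpp 7 (24.1%) were lower, led by Ybx2 and Ddx25 (−0.75), and Igf2bp1 was higher (0.69). The call of Igf2bp1 rests on 1 of its 4 probe sets, and the others were at −0.52, −0.21 and 0.26 without a call. Of 24 testis histones and chromatin factors, 2 were called over all arrays (Morc2b and Phf7). With the arrays of 14 dpp 6 (25%) were lower, with H2ax at −0.97, Kdm3a at −0.38 and Atr at −0.34, and Scml2 was higher.

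**Figure D3:**
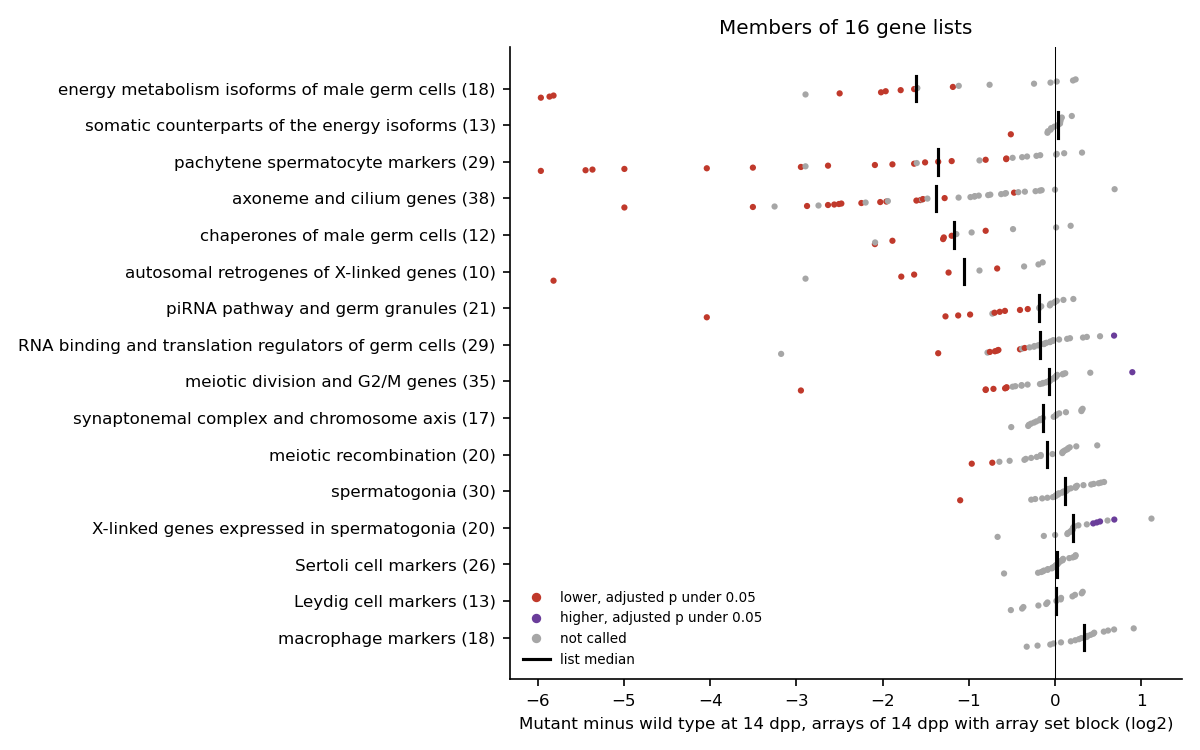
Mutant minus wild type at 14 dpp (log2, arrays of 14 dpp with the set as a block) for the tested members of 16 gene lists, 1 point a gene, with red for genes called lower, purple for genes called higher, grey for no call and a black bar at the list median. Medians of the energy, pachytene, axoneme, chaperone and retrogene lists lie below −1, and those of the other 11 lists lie between −0.2 and 0.4.

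Markers of somatic cells were measured beside these lists. Of all genes, 0.32% were called lower and 0% higher over all arrays, and 2.38% and 0.399% with the block. At these shares a list of this size may hold no call, so an absent call does not show an unchanged cell type. For Sertoli cells 26 of 29 markers were tested, none was called in either fit, and their summed signals were 135525 to 153304 in mutants and 141183 to 149459 in wild type. The markers with the smallest p, Espn, Kitl and Sox9, differed by 0.52, −0.297 and 0.34. For Leydig cells 13 of 20 were tested and none called, with sums of 12449 to 20204 in mutants and 13644 to 15542 in wild type. For macrophages 18 of 19 were tested, none called, with sums of 8312 to 11949 in mutants and 6807 to 9309 in wild type and a median difference of 0.39. For peritubular myoid cells (15 of 15 tested, median 0.28), endothelium (16 of 16, median 0.24) and epididymis (8 of 19, median −0.052), none was called in either fit. For red blood cells 6 of 14 were tested, with a median of −0.46 and no call. Summed ranges of all 7 of these lists overlapped between the genotypes over both sets. Within set 1 the sums of the macrophage, myoid, endothelial and epididymis lists were higher in both mutants than in both wild types, those of the Leydig and red blood cell lists were lower, and those of the Sertoli list overlapped. Within set 2, with its 1 wild-type array, the Sertoli and Leydig sums were higher in the mutants and the others overlapped. None of their markers passed an unadjusted p of 0.05 in the fit over all arrays, and their part in the germ cell results was not tested. Of 22 genes of apoptosis and the p53 response, 0 were called in either fit (0 at an unadjusted p under 0.05 over all arrays), and of 22 heat shock and immediate early genes only Dnajb1 (−0.36) was called, with the arrays of 14 dpp. Among 9 MYB family and MuvB genes, Mybl1 was the one called, in that fit.

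Genes called higher included many on the X chromosome. With the arrays of 14 dpp and the set as a block, 25 of 512 X-linked genes were higher (4.88%) and 0 lower, against 33 higher (0.224%) and 364 lower (2.47%) of 14752 autosomal genes. Of the 8 Y-linked genes tested, Usp9y (0.49), Uba1y (0.299) and Zfy2 (0.59) were higher. The median difference was 0.16 over the X-linked genes and 0.001 over the autosomal genes, and 77.3% of X-linked genes were positive against 50.2%. Positive in both sets were 54.7% of X-linked and 27.9% of autosomal genes. On single arrays of set 1, the X-linked median exceeded the autosomal median by 0.69 and 0.65 in mutants and by 0.46 and 0.43 in wild type. In set 2 it exceeded it by 0.45, 0.48 and 0.49 in mutants and by 0.24 in wild type. The genotypes were separate within each set and overlapped only between sets. As background, pachytene spermatocytes normally silence the X and Y chromosomes in the sex body. Of 20 X-linked genes listed as expressed in spermatogonia, 0 were called over all arrays and 4 were higher with the arrays of 14 dpp (Tktl1, Taf7l, Tex13b and Magea5), with sums of 40727 to 51131 in mutants and 33321 to 41482 in wild type. These ranges overlapped only between the sets, since the sums in set 1 were 51131 and 48066 in mutants and 40662 and 41482 in wild type, and those in set 2 were 42739.9, 40727 and 42086 in mutants and 33321 in wild type.

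**Figure D4:**
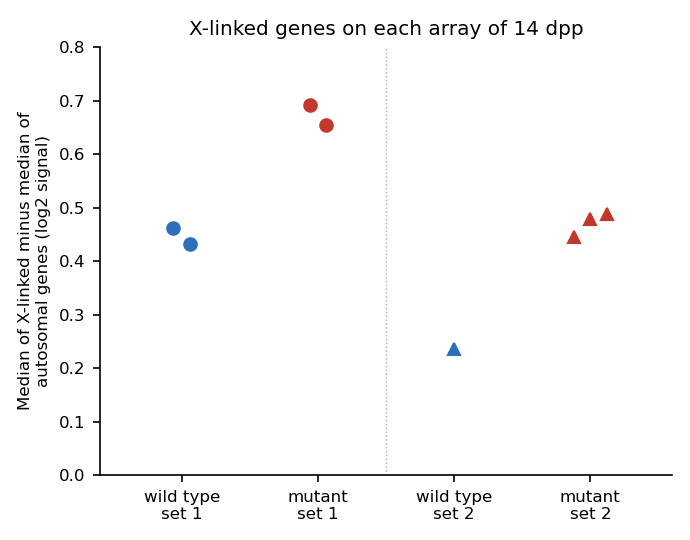
Median log2 signal of 512 X-linked genes minus that of 14752 autosomal genes on each of the 8 arrays of 14 dpp, in wild type (blue) and mutants (red), for array set 1 (circles) and set 2 (triangles). In each set the mutant arrays lie above the wild-type arrays, 0.65 to 0.69 against 0.43 to 0.46 in set 1 and 0.45 to 0.49 against 0.24 in set 2.

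Individual X-linked changes were small, from 0.29 to 0.96. 1700013H16Rik gave 1221, 1042, 1647, 1502 and 1574 in mutants and 539.7, 592 and 838 in wild type, a difference of 0.96 ± 0.093 (adjusted p = 0.00018). Taf7l, the germ cell paralogue of a TFIID subunit, gave 6306, 5889.6, 7465, 7506 and 7841 in mutants and 4247, 4662 and 5270.0 in wild type, a difference of 0.49 ± 0.065 (adjusted p = 0.00171). In both, every mutant array was above every wild-type array. Scml2, a Polycomb protein of spermatogonia, gave 3618, 3475, 3033, 2510.3 and 2583 in mutants and 2040.0, 2329 and 1822 in wild type, a difference of 0.64 ± 0.087 (adjusted p = 0.00186). Ccnb3, a meiotic cyclin, gave 2174, 1586, 1364, 1329 and 979.9 in mutants and 824, 954 and 759.9 in wild type, a difference of 0.898 ± 0.15 (adjusted p = 0.00731). The groups were separate here too, while of the 25 genes 14 were without overlap, against 2.26% of all genes, and all 25 were positive in both sets. The 25 were called on these same arrays, so these counts follow in part from the call and are no further test. The others were Magea5, Tktl1, Magea6, Mtcp1, Trap1a, 1700080O16Rik, Map7d2, Med12, Mbnl3, Tex13b, Efhc2, Ube2a, Bex1, Apool, Fmr1nb, Dcaf8l, Taf9b, Zfp711, Rbmx2, Ogt and Atp6ap2. Of the 25, 11 (44%) were also called higher at 17 dpp, on other arrays, against 56 of all 512 X-linked genes (10.9%) and 2.03% of all genes. A further probe set was tested for 11 of the 25, and in 2 of these another one was called higher too. That of Scml2 was at 0.089 without a call. The count of X-linked calls depended on the fit, being 0 over all 18 arrays, 1 over all 18 with the set as a block (1700013H16Rik), 1 without the intensity trend, 16 with arrays set to a common median, and 8 without wild-type replicate 2. It was 9 without mutant replicate 1, 11 without mutant replicate 2, 16 without mutant replicate 3 and 14 without wild-type replicate 1.

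Autosomal genes called higher numbered 33, from 0.29 to 2.12. Cuedc1, a CUE domain gene, gave 303, 404, 381, 445 and 428 in mutants and 70.3, 73.7 and 156 in wild type, a difference of 1.91 ± 0.21 (adjusted p = 0.000427). Malat1, a nuclear long noncoding RNA, gave 3147, 2988, 2031, 1937 and 2096 in mutants and 1922, 2041 and 1378 in wild type, a difference of 0.597 ± 0.072 (adjusted p = 0.000909). Cuedc1 was separate between the genotypes, and the ranges of Malat1 overlapped between sets but not within them. Nnt, the mitochondrial transhydrogenase, gave 1230.1, 1119.8, 1016, 943 and 1010.1 in mutants and 542, 726 and 684 in wild type, a difference of 0.74 ± 0.12 (adjusted p = 0.00724). Dnmt1, the maintenance DNA methyltransferase, gave 2722, 2692, 2159, 2343 and 2249.5 in mutants and 1873, 2019 and 1918 in wild type, a difference of 0.37 ± 0.079 (adjusted p = 0.0353). Both were without overlap. Changes over 2-fold were seen in 4921525D07Rik (2.12), Gabrb2 (1.93), Cd55 (1.37), Srd5a3 (1.30) and Hddc3 (1.05) besides Cuedc1. Each of these 6 rests on 1 probe set. Wild-type means of 4921525D07Rik (16.6), Gabrb2 (22.4), Cd55 (86.7) and Cuedc1 (93.1) lay under 93.4, the highest 40th percentile of a mutant array. The size of those folds is thus uncertain. The other probe sets were at 0.27 and 0.37 in Cuedc1, at 1.92, 0.26, 0.65 and 0.61 in Gabrb2 and at 0.082 and 0.49 in Cd55. Those of Srd5a3 were at −0.0075, 0.12, −0.14 and −0.054, that of Hddc3 was at 0.019, and 4921525D07Rik had 1 probe set alone. None of these others was called, nor were those of Nnt (0.52 and 0.19), Dnmt1 (0.10 and 0.44) and Malat1 (6 others, from −0.033 to 1.92). Of the 33 genes 25 had a further probe set tested, which was called higher too in 3 and had the opposite sign in at least 1 case in 11. Of the 49 genes called lower over all arrays 14 had one, which in this fit was called lower too in 9 and had the opposite sign in 0. Snhg6, a noncoding RNA gene that is the fourth tested gene beyond Mybl1 on chromosome 1, was at 0.46 ± 0.097 (adjusted p = 0.032). The rest were Kmt2c, Ptpn13, Washc2, Trim25, Dhtkd1, Fmod, Scpep1, Zbtb20, Hif1a, Lrba, Map2, Slc20a1, Selenok, Prkaca, Syne2, Atf5, Ptprv, Phldb2, Igf2bp1, Pdlim5, Tle6, Col6a4 and Ssbp2. Of the 33, 18 were without overlap between the genotypes, against 2.26% of all genes, a count that follows in part from their call on these arrays. At 17 dpp 9 of the 33 (27.3%) were also called higher, against 252 of 14752 autosomal genes (1.71%). AACGG stood in 7.27% of 55 promoters of all genes called higher and in 32.9% of 310 promoters of genes called lower in this fit. Over all 18 arrays with the set as a block, 4 probe sets were higher: 1700013H16Rik, a second probe set of Ube2a (0.90), a probe set of Srcap, a chromatin remodeller (2.09), and 1 without a gene.

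Values at 17 dpp, from 10 other arrays in the same fit, were set beside those of 14 dpp. All 49 genes were also called lower there, against 5.83% of all genes, and the fall was larger at 17 dpp in 45, with medians of −3.41 and −5.42. Piwil1 went from −4.15 to −6.85, Meig1 from −2.61 to −5.10 and Phf7 from −1.84 to −3.66. In these 3 and in Ttc30a2, Mdh1b, Ccdc89 and Spesp1 the interaction of genotype and age was called. Hspa2 (−2.09 and −2.39), 1700102P08Rik (−2.76 and −2.93) and Cox8c (−2.53 and −2.51) had similar values at both ages, without a called interaction. Of the 365 genes lower with the arrays of 14 dpp, 257 (70.4%) were lower at 17 dpp, which is 28.8% of the 892 lower there, and 0 were higher. Of the 61 higher genes, 22 (36.1%) were higher at 17 dpp, 7.07% of the 311 higher there, against 2.03% of all genes, and 0 were lower. At 17 dpp most arrays had high β-actin ratios and lower scaling. The split was unequal, since mutant replicates 1 and 2 but only wild-type replicate 1 lay in set 1. This contrast had no set block and shared its spread per gene with that of 14 dpp. The part of these limits in the values of 17 dpp was not tested.

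**Figure D5:**
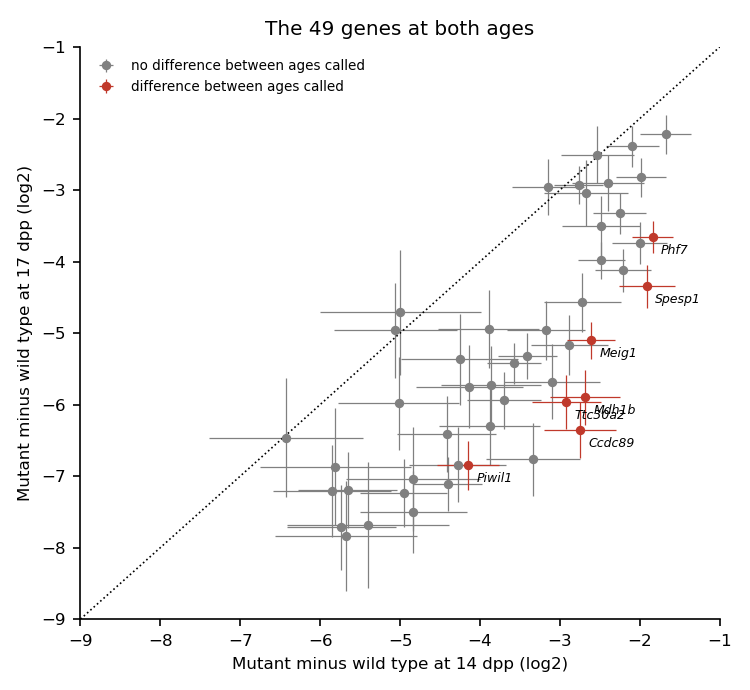
Mutant minus wild type (log2, bars are standard errors from limma) at 14 dpp (x axis) and 17 dpp (y axis) for the 49 genes, with red for the 7 genes whose interaction of genotype and age was called and a dotted line at equal values. In 45 genes the point lies below the line, and all points are negative at both ages.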

How the data were processed

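RNA of whole testes was hybridised to 18 Affymetrix arrays, 8 of them of 14 dpp. The deposited values are signal intensity on a linear scale, which the authors made with Affymetrix GCOS (design text of the series) and MAS5, per the submitters' processing notes; no version is given in the sources used here. Arrays of 14 dpp shared a trimmed mean of about 500 (2% trimmed at each end).

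Of 45101 probe sets, 64 controls were removed. Tests were made on probe sets that exceeded the 40th percentile of the array on 3 arrays or more. The brightest such probe set with 1 annotated gene stands for that gene, and 15274 of 15307 genes matched the RefSeq table (GRCm38.p6). limma 3.58.1 (R 4.3.3) was run on log2 intensity of all 18 arrays, with a mean for each of the 4 groups, 14 residual degrees of freedom and an intensity trend, two-sided, with Benjamini-Hochberg adjustment over 34764 probe sets at 0.05. The scripts were tested on simulated data. Array sets were bounded at 1.9 and 10 in the 3'/5' signal ratio of the β-actin controls.

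Same-numbered mutant and wild-type arrays of 14 dpp deviated together (r = 0.283, 0.355 and 0.385 across probe sets), so the number was treated as a block in an alternative. Each pair lies in 1 array set, and differently numbered arrays of 1 set gave 0.288 to 0.384. No 2 arrays held identical values.

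Named were every called gene in a role group, with each array's value for the 15 smallest adjusted p and the 10 largest differences, every gene higher with the set as a block, Mybl1, and called list members with up to 3 of the smallest p. The 28 lists held 693 entries and 504 different tested genes. Members, lists and rules were chosen with earlier results of these data known, and the roles of the 49 genes were assigned after their values were seen. Alternatives changed scaling, filter, offset, spread, model, array set, pairing and replicates.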

Additional observations from a re-analysis of the deposited data

Results flagged for a closer look

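The genotype difference changed between 14 and 17 dpp in 7 of the 49 genes, by limma's interaction with Benjamini-Hochberg adjustment. The difference at 17 dpp minus that at 14 dpp was −2.7 in Piwil1, −2.49 in Meig1, −1.82 in Phf7, −3.04 in Ttc30a2, −3.21 in Mdh1b, −3.61 in Ccdc89 and −2.43 in Spesp1, so the fall was larger at the older age in each.

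In 4 genes 1 mutant array of 14 dpp stood apart from the other 4, by a gap that is a large share of the group's range. The share was 0.785 in Rfx4, where replicate 4 was low at 4.18, 0.732 in Morc2b, where replicate 5 was high at 38.01, 0.775 in Pifo, where replicate 3 was high at 59.7, and 0.797 in Pde1c, where replicate 2 was low at 8.95. Chance flags about 1 in 20 groups, and all 4 arrays' signals were under the lowest wild-type array of the gene.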

How the results depend on the processing

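The 68 probe sets lower at 14 dpp became 128 (124 lower) with the array set as a block, 31 within set 2, 177 with only the arrays of 14 dpp and 658 (131 higher) with those arrays and the set as a block. Array weights gave 5357, of which 3409 were higher. Mutant weights were 1.11 and 1.14 in set 1 and 3.05 to 4.21 in set 2. Wild-type weights were 3.85 and 3.67 in set 1 and 0.81 in set 2. Genotype and array set thus cannot be told apart in that count. The unmoderated two-way model at the study's threshold of 0.025 gave 33, and the replicate block 30. Without the 7 arrays of set 3, an alternative chosen after seeing the data, there were 233. The other planned settings gave 65 to 100, and the common median moved differences by −0.12. Leaving out single arrays gave 24 (without wild type replicate 2) to 65. Without wild-type replicate 3, 5 of 52 were higher.

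None of the 49 genes reversed under the alternatives run. Within set 2, 20 kept their call, within set 1 38, with the replicate block 20, with the unmoderated model 24, and with the mean of a gene's probe sets 43. Under the leave-one-out fits 18 kept it each time, and Tcam1, 4921525O09Rik, Dnah7a and 4930463O16Rik lost it each time.

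The alternatives to the fit of 426 genes were chosen after seeing the data. It gave 118 without the intensity trend and from 215 to 396 with an array left out. Its 25 X-linked calls became 16 with the common median, 1 without the trend, 0 over all 18 arrays, 1 over all 18 with the set as a block, and 8 to 19 with an array left out. The cause of these changes was not tested. Signals near background limit the size of folds in 31 of the 49 genes.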

Other observations

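Around Mybl1 on chromosome 1, the 10 tested genes to either side were read in the order of the reference table, with the arrays of 14 dpp and the set as a block. Snhg6 was the one called there, at 0.46. Ppp1r42, with signals near background in mutants, was at −2.65 without a call (adjusted p = 0.229), and Vcpip1 and Cops5 were at −0.12 and −0.11. Chromosome 1 held 6 of the 33 autosomal genes called higher in that fit, or 0.683% of its 879 tested genes, against 0.224% of all autosomal genes.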
